A study of Mus musculus with 5 samples.

Results

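Fatty acid oxidation was described here through 31 genes, each found once among the 32285 genes of the count matrices, in single cells of mouse kidney after ischemia-reperfusion injury, in which blood flow to the kidney is stopped and then restored. The genes were chosen by symbol for their place in the pathway: 4 of the carnitine shuttle, 9 of the mitochondrial oxidation spiral, 3 auxiliary enzymes, 3 of electron transfer, 5 of the peroxisome, 2 of uptake and activation, 2 omega-hydroxylases and 3 regulators. Kidneys of mice 3, 4 and 5 were taken at day 10 after injury and kidneys of mice 1 and 2 at 48 h, 1 library per mouse, with the v3.1 3′ droplet chemistry of 10x Genomics. The labels give no strain, sex, age or surgical detail and no uninjured kidney was analysed here, so each comparison sets the later against the earlier time and not injury against health. Every mouse had 1 time only, and replicates are mice.

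Long-chain fatty acids are the main fuel of the proximal tubule, the nephron segment that reabsorbs most of the filtrate. They enter the cell through transporters, are activated to acyl-CoA, and cross the mitochondrial membranes as carnitine esters before the acyl-CoA dehydrogenases, hydratases, hydroxyacyl-CoA dehydrogenases and thiolases shorten them in repeated turns. Very long and branched chains are first shortened in peroxisomes, and cytochromes of the Cyp4a family hydroxylate the far end of the chain. Many of these genes are known targets of the fatty acid receptor PPARα (gene Ppara), and lower expression of the pathway in injured tubules is a known feature of kidney injury in mice and people.

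The deposited annotation put 23797 cells under 18 labels, and the libraries held 3720 to 5912 annotated cells and 45887945 to 78351722 unique molecular identifiers (UMIs). Library pairs shared 3 to 10 cell barcodes. UMIs were summed per mouse and label. Levels set side by side between labels are given as counts per 1000000 UMIs of that sum (raw CPM), and values in a comparison of times are scaled by edgeR's trimmed mean of M-values (TMM-scaled CPM). A 3′ UMI count does not scale with transcript length. The 5 labels of proximal tubule epithelial cells (PTEC) are S1, Lrp2+ S2/3, Lrp2- S2/3, Injured PTECs and Cycling PTEC, and "proximal tubule" below is their sum.

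The labels were set against markers, and 3 features of the libraries bear on the results. The receptor gene Lrp2 had 1233, 1099 and 1337 raw CPM in Lrp2+ S2/3 cells of mice 3, 4 and 5, against 1299 and 1646 in mice 1 and 2, while Lrp2- S2/3 cells had 232 to 406 raw CPM at day 10 and 133 to 198 at 48 h, so that label was low in Lrp2 but not without it. Cycling PTEC cells went against their label at day 10, with 40.5, 44.9 and 54.9 raw CPM of Lrp2, against 548 and 1080 at 48 h, and with 384 to 1224 raw CPM of Umod, a thick ascending limb gene, against 150 and 267. Mouse 4 stood apart in the proximal tubule, where the abundant tubule gene Kap had 16909, 204 and 12666 raw CPM in mice 3, 4 and 5 and 6646 and 9398 in mice 1 and 2. Transcripts of the Y-linked gene Ddx3y were counted in all 5 mice. Counts for the main fits are therefore also given without mouse 4.

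The summed level of the 31 genes was highest in 4 of the 5 proximal tubule labels and lowest in blood cells. Averaged over 5 mice, the set took 6639 ± 594 raw CPM in Lrp2+ S2/3 cells, 6342 ± 1060 in Lrp2- S2/3 cells, 4702 ± 1346 in Injured PTECs and 3963 ± 469 in S1 cells (SD, n = 5). The distal convoluted tubule followed with 3148 ± 392 raw CPM, then Cycling PTEC cells with 3073 ± 1309, and the thick ascending limb had 2558 ± 301. Endothelial cells had 1370 ± 165, immune cells 1124 ± 69.9 and red blood cells 202 raw CPM, the last from the 4 mice that had any. In that order, the ranges over mice of neighbouring labels overlapped at every step except between immune and red blood cells, but compared within mice the higher label of a pair was higher in all 5 mice at 6 of these 17 steps, such as S1 over distal convoluted tubule and endothelial over immune cells. With mitochondrially encoded genes left out of the total, the means were 8636 CPM in Lrp2+ S2/3 cells and 6605 in Lrp2- S2/3 cells. The Lrp2+ label was then higher in each of the 5 mice, against 3 of 5 on raw CPM. Labels were made from the same cells and genes, so no test was run between them.

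At day 10 the set was lower than at 48 h in most labels. In the whole proximal tubule it took 4799, 4329 and 4847 raw CPM in mice 3, 4 and 5, against 5348 and 5971 in mice 1 and 2, a difference of -0.28 on the log2 scale. It was -0.54 with TMM-scaled totals and -0.15 without Injured and Cycling PTEC cells. The mice at day 10 all lay below the 2 mice at 48 h in 12 of the 18 labels, overlapped with them in 5 and lay above them in 1, the distal convoluted tubule. Red blood cells are among the 12, with 0 cells in mouse 4 and 136 member UMIs over all mice. Injured PTECs showed the widest gap among the tested proximal labels, with a mean of 3856 ± 749 raw CPM at day 10 (SD, n = 3) and 5972 ± 868 at 48 h (SD, n = 2). In the thick ascending limb the groups overlapped, at 2441 ± 185 and 2735 ± 435 raw CPM. The values depended on the denominator in these segments and in Lrp2+ S2/3 cells. Mitochondrially encoded genes took 14.2%, 13.0% and 18.1% of distal convoluted tubule UMIs in mice 3, 4 and 5, against 23.3% and 25.6% in mice 1 and 2, with a like gap in the thick ascending limb. With those genes left out of the total, the distal convoluted tubule groups overlapped, at means of 3995 and 3703 CPM, and no label had day 10 wholly above 48 h. Without them the thick ascending limb had 2461, 2636 and 2864 CPM in mice 3, 4 and 5, all below the 3094 and 3886 in mice 1 and 2. Lrp2+ S2/3 cells then had 8841, 7557 and 8595 CPM in mice 3, 4 and 5, overlapping with the 9453 and 8736 in mice 1 and 2.

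**Figure D1:**
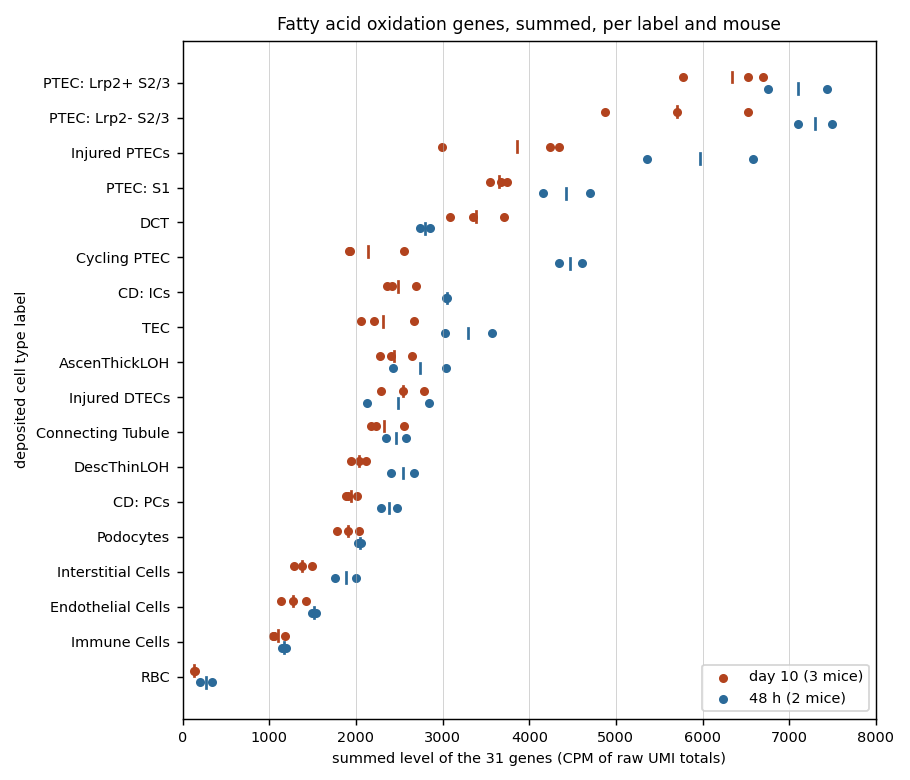
Summed level of the 31 fatty acid oxidation genes in each of the 18 deposited labels, as CPM of the unscaled UMI total (x axis), with 1 dot per mouse, day 10 above 48 h within a label, and a tick at each group's mean. The Lrp2+ and Lrp2- S2/3 labels lie furthest right, immune and red blood cells furthest left, and in 12 of the 18 labels all day 10 dots lie left of the 48 h dots.

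A few members were nearly restricted to the proximal tubule and most were not. The ratio of the raw CPM in proximal tubule to the median of the other 8 tubule labels was 104 for the omega-hydroxylase gene Cyp4a10, 76.8 for Slc27a2, 60.4 for Cyp4a14 and 37.2 for the peroxisomal thiolase gene Acaa1b. Ppara and Ehhadh, which encodes the peroxisomal bifunctional enzyme, followed at 11.2 and 10.6. Of the other 25 members, 21 had ratios between 1 and 5, with Etfb at 2.23 the highest and Acadl at 1.02 the lowest of these.

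The 4 members below a ratio of 1 peaked in distal labels. Hadha and Hadhb, the subunits of the mitochondrial trifunctional protein, averaged 201 and 179 raw CPM in the distal convoluted tubule, against 100 and 91.0 in the proximal tubule. Ppargc1a, which encodes a coactivator of mitochondrial genes, averaged 146 raw CPM in the connecting tubule and 51.0 in the proximal tubule. Pdk4, whose kinase turns off pyruvate dehydrogenase and so spares glucose when fat is burned, averaged 44.0 raw CPM in Injured DTECs (the injured distal tubule label) and 7.64 in the proximal tubule. Cpt1a, the rate-limiting step of mitochondrial entry, also peaked in the distal convoluted tubule, at 185 raw CPM, although its proximal level of 105 raw CPM was 1.27 times the median of the other tubule labels.

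Within the proximal tubule a small number of genes made up most of the set. Slc27a2, a very long-chain acyl-CoA synthetase and fatty acid transporter, supplied 18.9% of the set's raw CPM and Etfb, the beta subunit of the electron transfer flavoprotein, 13.3%. The 8 highest members, which also include Acadm, Hadh, Acadl, Acaa1b, Etfa and Abcd3, supplied 59.6%. Slc27a2 itself differed between labels, at 1376 raw CPM in Lrp2+ S2/3 cells, 998 in Injured PTECs, 510 in S1 cells and 265 in Lrp2- S2/3 cells. Of the 31 members, 26 had their highest label mean in a PTEC label, 19 of them in Lrp2- S2/3 cells, whose median of 1862 to 2406 UMIs per cell was far below the 7509 to 20624 of Lrp2+ S2/3 cells. Mitochondrially encoded genes took 2.84% to 5.48% of UMIs in Lrp2- S2/3 cells and 21.3% to 24.2% in Lrp2+ S2/3 cells. Raw CPM counts those genes in its total, and the label peaks were not recomputed without them. Etfb shared 58.1% of the 50-base words in its last 500 transcript bases with the gene Gm45233, and Hadhb 35.4% with Gm13910 and Gm9108. Acaa1b and Acaa1a shared 38.8% and 31.6% of theirs with each other. The counts of these genes are less certain than the others.

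**Figure D2:**
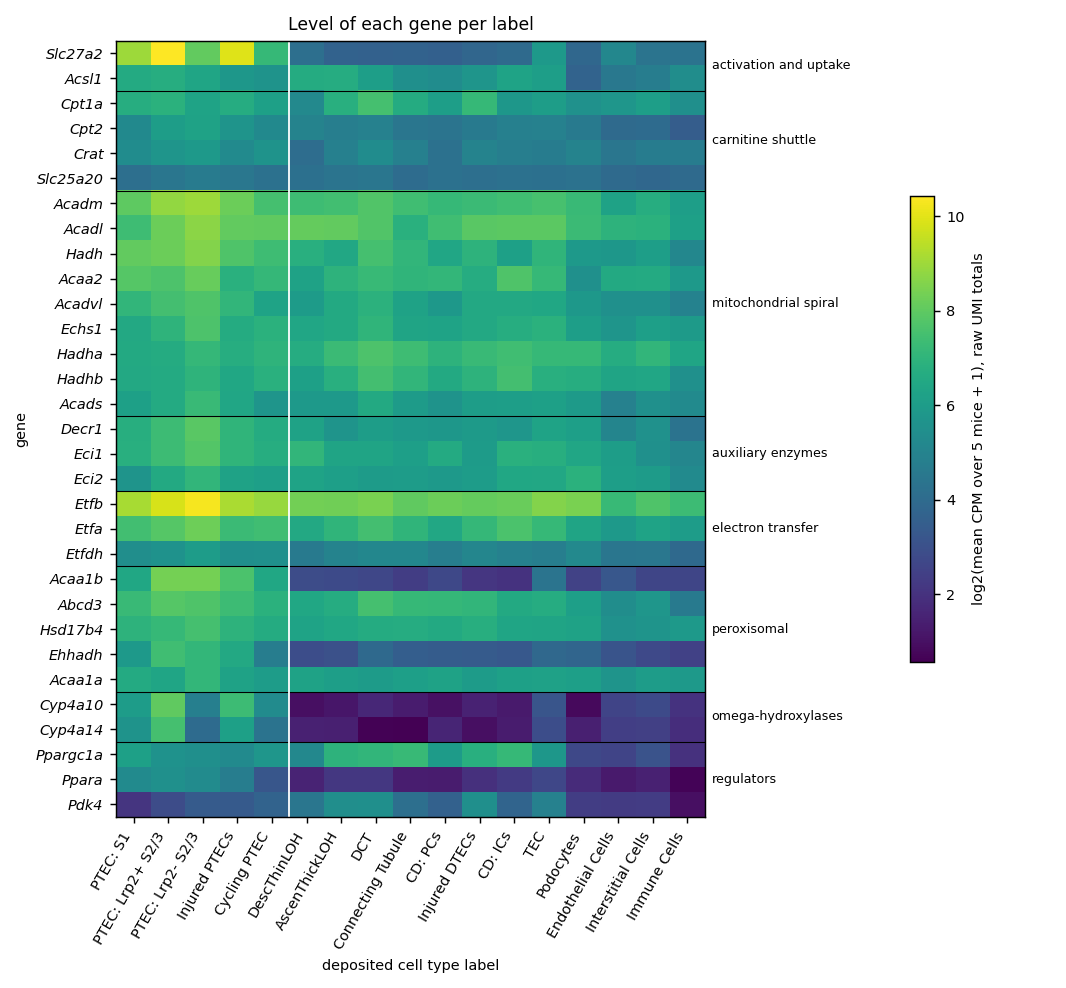
Mean level of each member over the 5 mice, as log2(CPM + 1) of unscaled UMI totals (colour), for 31 genes ordered by role (rows) and 17 labels (columns, without red blood cells), with a white line right of the 5 PTEC labels. Cyp4a10, Cyp4a14, Slc27a2 and Acaa1b are bright left of the line and dark right of it, whereas Hadha, Hadhb and Ppargc1a are brighter in distal columns.

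The paired peroxisomal thiolase genes show the contrast most directly. Acaa1b (chr9:119148023-119157093, minus strand) and Acaa1a (chr9:119339676-119350299, plus strand; GRCm38) lie on the same chromosome, and Acaa1a had a ratio of proximal to other tubule labels of 1.20, against 37.2 for Acaa1b. They shared 38.8% of the 50-base words at the 3′ end of Acaa1b and 31.6% at that of Acaa1a, so a part of their reads could not be told apart. Their promoters, from 250 bases before to 50 after the RefSeq start (GRCm38.p6), are printed because the levels of the neighbours differ. Capitals mark CCAAT or, on the other strand, ATTGG, the box bound by nuclear factor Y, at chr9:119157044-119157343 on the minus strand for Acaa1b and at chr9:119341044-119341343 on the plus strand for Acaa1a.
Acaa1b: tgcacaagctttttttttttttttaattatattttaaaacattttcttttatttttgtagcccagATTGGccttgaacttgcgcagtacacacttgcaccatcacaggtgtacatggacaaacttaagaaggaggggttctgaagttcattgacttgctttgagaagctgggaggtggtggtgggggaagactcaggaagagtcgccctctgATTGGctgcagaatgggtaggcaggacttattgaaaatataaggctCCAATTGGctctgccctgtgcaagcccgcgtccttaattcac
Acaa1a: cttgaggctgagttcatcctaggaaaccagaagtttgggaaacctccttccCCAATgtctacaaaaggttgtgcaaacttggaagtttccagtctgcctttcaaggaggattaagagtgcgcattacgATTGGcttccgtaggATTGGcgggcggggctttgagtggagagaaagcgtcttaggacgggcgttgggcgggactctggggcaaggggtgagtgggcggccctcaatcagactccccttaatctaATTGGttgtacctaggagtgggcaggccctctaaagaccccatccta

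Both windows held the CCAAT box, which 37.4% of 32851 promoter windows of the same length held on either strand. It was found in 11 of the 25 members that had a RefSeq promoter window. The nuclear receptor half-site AGGTCA was found in 5 of them, Acadm, Acadvl, Cpt1a, Echs1 and Slc27a2, and in 16.3% of all promoters. Its direct repeat AGGTCANAGGTCA, the form known for PPARα with its partner receptor, was in none of the members' windows and in 0.0396% of all. An exact word that rare would hardly occur in 27 windows, so its absence tells nothing about PPARα sites. Cyp4a10 and Cyp4a14 were among the members without a window. Neither TATAAA, in 13.6% of all, nor the extended half-site TNAAGGTCA, in 1.28% of all, was in any member's window. Acadvl and Slc27a2 are printed with the half-site in capitals (AGGTCA, or TGACCT on the other strand). Acadvl (chr11:70010183-70015411, minus strand) was called lower in more than 1 nephron segment, and its window is chr11:70015379-70015678. Slc27a2 (chr2:126552407-126588243, plus strand) was the most abundant member in the proximal tubule, and its window is chr2:126552774-126553073.
Acadvl: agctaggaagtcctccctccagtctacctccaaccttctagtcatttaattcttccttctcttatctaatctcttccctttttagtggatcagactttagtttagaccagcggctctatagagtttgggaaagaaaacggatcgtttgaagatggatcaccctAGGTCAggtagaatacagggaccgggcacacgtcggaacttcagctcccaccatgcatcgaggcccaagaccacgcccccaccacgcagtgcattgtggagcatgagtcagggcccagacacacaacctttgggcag
Slc27a2: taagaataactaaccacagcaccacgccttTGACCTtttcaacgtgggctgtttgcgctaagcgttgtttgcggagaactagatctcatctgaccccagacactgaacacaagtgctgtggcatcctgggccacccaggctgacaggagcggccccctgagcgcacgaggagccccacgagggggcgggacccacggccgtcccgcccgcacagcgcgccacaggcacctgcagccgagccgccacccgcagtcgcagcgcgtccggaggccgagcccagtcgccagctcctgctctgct

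Between day 10 and 48 h, 6 of 31 members fell in the whole proximal tubule and none rose, at an adjusted p under 0.05 over all genes tested (edgeR's quasi-likelihood test with Benjamini-Hochberg adjustment). Over all 13899 genes tested, 3.22% passed in either direction and 1.94% were lower at day 10. The 6 were Cyp4a10, Acaa1b, Decr1, Acadvl, Eci1 and Hsd17b4. The median log2 fold change was -0.45 over the members and 0.03 over all genes, and 20 of 31 members had all 3 mice at day 10 below both mice at 48 h, against 21.1% of all genes. With unscaled totals the median over all genes was 0.29, so changes are relative to that shift, and 3 members passed (Acaa1b, Decr1 and Cyp4a10), all lower. For unscaled totals the share of all genes that passed is not given, here or below.

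The omega-hydroxylase gene Cyp4a10 had the largest fold among the called members of the proximal tubule. It (chr4:115518264-115533649) had 89.8, 105 and 81.0 TMM-scaled CPM in mice 3, 4 and 5 at day 10, against 235 and 287 in mice 1 and 2 at 48 h, and fell by 1.51 on the log2 scale (SE 0.17, adjusted p = 0.0124). Every mouse at day 10 was below every mouse at 48 h. Its neighbour Cyp4a14 (chr4:115486200-115496142) had 39.3, 123 and 47.6 TMM-scaled CPM at day 10, against 208 and 88.0 at 48 h. These groups overlapped, with mouse 4 between the 48 h mice, and the log2 fold change of -1.10 (SE 0.54) did not pass (adjusted p = 0.282).

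Of the 5 peroxisomal members, Acaa1b and Hsd17b4 fell. Acaa1b had 135, 110.6 and 151 TMM-scaled CPM at day 10, against 259 and 388 at 48 h (log2 fold change -1.29, SE 0.21, adjusted p = 0.0301). Hsd17b4, the multifunctional enzyme that handles branched chains and bile acid precursors, had 101, 108 and 105 TMM-scaled CPM at day 10, against 165 and 179 at 48 h (log2 fold change -0.71, SE 0.13, adjusted p = 0.0364). In both genes the groups were apart. Abcd3, the membrane transporter that brings acyl-CoA into the peroxisome, had 152, 157 and 162 TMM-scaled CPM, against 199 and 230, with a log2 fold change of -0.45 (adjusted p = 0.119). The ratio of Acaa1b to Acaa1a was 1.80, 1.48 and 1.80 in mice 3, 4 and 5 and 3.15 and 3.63 in mice 1 and 2, so the thiolase pair did not change alike. Ehhadh and Acaa1a overlapped between times.

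In the mitochondrial spiral 1 of 9 members was called. Acadvl, the very long-chain acyl-CoA dehydrogenase that takes the first step on the inner membrane, had 113.5, 83.6 and 117 TMM-scaled CPM at day 10, against 209 and 218 at 48 h (log2 fold change -1.02, SE 0.18, adjusted p = 0.0336). Acadl, the long-chain dehydrogenase, had 217, 158 and 200 TMM-scaled CPM at day 10, against 388 and 313 at 48 h, with a log2 fold change of -0.87 that missed the threshold (SE 0.18, adjusted p = 0.0564). Acaa2, the mitochondrial thiolase, had 112.97, 137 and 137 TMM-scaled CPM, against 194 and 306, also short of it (log2 fold change -0.95, SE 0.21, adjusted p = 0.0675). All 3 were lower in each mouse at day 10 than in each at 48 h.

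The medium- and short-chain steps had smaller differences. Acadm, the medium-chain dehydrogenase, had 328, 231 and 303 TMM-scaled CPM at day 10, against 342 and 448 at 48 h (log2 fold change -0.46, adjusted p = 0.234). Hadh, which oxidises medium and short hydroxyacyl chains, had 211, 184 and 231, against 253 and 384 (log2 fold change -0.61, adjusted p = 0.154). Acads, the short-chain dehydrogenase, had 80.5, 69.4 and 76.8, against 95.7 and 98.8 (log2 fold change -0.36, adjusted p = 0.177). In these 3 and in Hadha and Hadhb the groups did not overlap, yet none passed. Echs1, the short-chain hydratase, had a log2 fold change of -0.03 (SE 0.13).

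Among the auxiliary enzymes, which rearrange double bonds of unsaturated chains, 2 of 3 fell. Decr1, the mitochondrial dienoyl-CoA reductase, had 103, 71.2 and 103 TMM-scaled CPM at day 10, against 197 and 207 at 48 h (log2 fold change -1.13, SE 0.19, adjusted p = 0.0301). Eci1, an enoyl-CoA isomerase, had 116, 91.8 and 108, against 188 and 172 (log2 fold change -0.77, SE 0.15, adjusted p = 0.0453). Eci2 was lower in all day 10 mice without passing (log2 fold change -0.44, adjusted p = 0.163).

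The electron transfer genes, which pass electrons from the dehydrogenases to the respiratory chain, had no call in the whole proximal tubule. Etfb had 628, 444 and 573 TMM-scaled CPM at day 10, against 842 and 929 at 48 h (log2 fold change -0.69, SE 0.18, adjusted p = 0.0932). Etfa had 179, 156 and 170, against 186 and 227 (log2 fold change -0.30, adjusted p = 0.290). Neither pair of groups overlapped, but the step in Etfa was small.

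Uptake, activation, the carnitine gate and the regulators gave no call in the whole proximal tubule. Slc27a2 had 1061, 752 and 936 TMM-scaled CPM at day 10, against 1099 and 952 at 48 h (log2 fold change -0.16, SE 0.19, adjusted p = 0.642). Cpt1a had 81.2, 126 and 117, against 91.1 and 106 (log2 fold change 0.13, SE 0.21, adjusted p = 0.739). Acsl1, a long-chain acyl-CoA synthetase, was the 1 member with every mouse at day 10 above both at 48 h, at 75.3, 129 and 86.4, against 46.5 and 69.2, and it did not pass (log2 fold change 0.74, SE 0.28, adjusted p = 0.184). Over all genes, 21.9% had day 10 wholly above 48 h.

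The other carnitine genes were lower in most mice at day 10. Cpt2, which releases the acyl group inside the mitochondrion, had 45.2, 32.1 and 57.0 TMM-scaled CPM at day 10, against 54.5 and 64.2 (log2 fold change -0.40, adjusted p = 0.363). Slc25a20, the carnitine-acylcarnitine carrier, had 17.1, 13.0 and 16.8, against 26.4 and 27.1 (log2 fold change -0.76, adjusted p = 0.0570), and Crat, the short-chain carnitine acetyltransferase, 34.5, 31.2 and 39.8, against 48.7 and 65.0 (log2 fold change -0.69, adjusted p = 0.0910). In Slc25a20 and Crat the groups were apart, and in Cpt2 they overlapped. Ppara had 23.1, 53.4 and 32.0 TMM-scaled CPM at day 10, against 25.4 and 41.9 at 48 h, and Ppargc1a 38.2, 63.0 and 56.1, against 40.5 and 54.6, with log2 fold changes of 0.09 (SE 0.37) and 0.14 (SE 0.24). Both regulators overlapped between times, with mouse 4 highest of the 5 mice in each. Pdk4 was low here, at 8.09, 1.53 and 7.23, against 18.6 and 4.15 (log2 fold change -0.96, SE 0.70, adjusted p = 0.452).

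The 6 calls in the whole proximal tubule depended on single mice. In all 6 every mouse at day 10 was below every mouse at 48 h, so leaving out 1 mouse could hardly turn their direction. In the fit of all mice, 18 of 31 members and 3149 of 13899 genes had an unadjusted p under 0.05 (edgeR). Refitted with 1 mouse left out, 4 members passed without mouse 1 (Acaa1b, Acaa2, Decr1 and Cyp4a10), 1 without mouse 2 (Cyp4a10), 2 without mouse 4 (Decr1 and Cyp4a10) and 0 without mouse 3 or mouse 5, where edgeR gave 14 and 17 members at an unadjusted p under 0.05. The mix of cells moved with the mice too: Injured PTECs were 25.9%, 14.4% and 24.1% of proximal tubule cells in mice 3, 4 and 5 and 43.4% and 12.9% in mice 1 and 2, and supplied 39.8%, 19.3% and 34.5% of the summed UMIs, against 73.1% and 27.9%. With Injured and Cycling PTEC cells left out, 3 members passed (Acadvl, Acaa2 and Decr1), and Acaa1b and Cyp4a10 did not. The share of all genes that passed in each refit is not given, here or for the labels and the interaction below. A lost or gained call is therefore no result about the members alone.

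**Figure D3:**
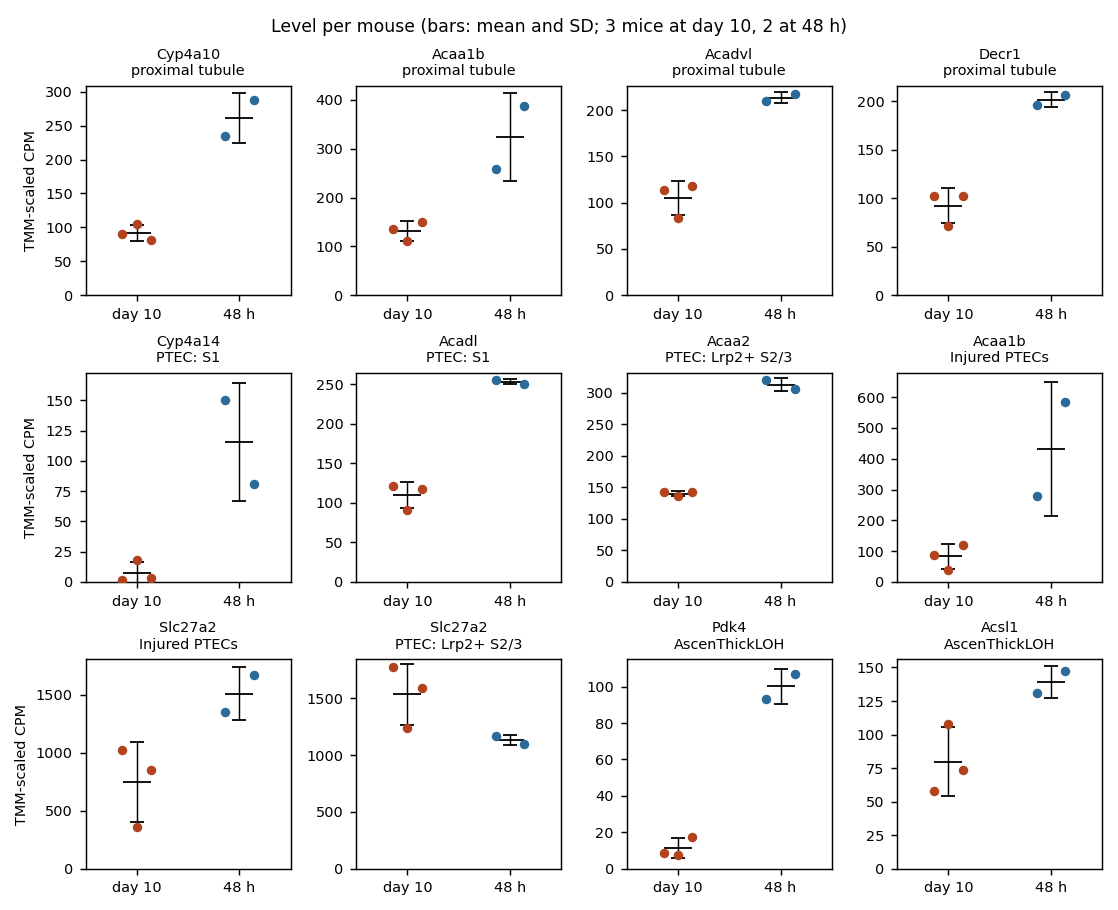
TMM-scaled CPM (y axis, from 0) of 12 gene and label pairs, with 1 point per mouse, day 10 left of 48 h, and bars for each group's mean and SD (n = 3 and n = 2). Cyp4a10, Acaa1b, Acadvl and Decr1 in the whole proximal tubule, and Pdk4 in the thick ascending limb, have every day 10 point below every 48 h point, whereas Slc27a2 in Lrp2+ S2/3 cells has every day 10 point above.

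The label-by-label comparisons share cells with the whole proximal tubule and are not independent of it. In S1 cells, 5 of 30 tested members fell and none rose, where 2.82% of all genes passed in either direction and 2.43% were lower at day 10. Cyp4a14 had 1.62, 17.96 and 3.38 TMM-scaled CPM in mice 3, 4 and 5, from 9, 45 and 21 UMIs, against 150 and 81.0 in mice 1 and 2, from 380 and 270 UMIs (log2 fold change -4.25, SE 0.67, adjusted p = 0.0143). Cyp4a10 had 13.7, 33.9 and 12.4, against 110 and 163 (log2 fold change -2.87, SE 0.38, adjusted p = 0.00687). Mouse 4 was the highest of the day 10 mice for both omega-hydroxylases but stayed below the 48 h mice. Acadl had 122, 91.0 and 117 TMM-scaled CPM, against 256 and 251 (log2 fold change -1.20, SE 0.17, adjusted p = 0.00817).

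Decr1 and Acadvl also fell in S1 cells. Decr1 had 74.8, 63.9 and 78.9 TMM-scaled CPM at day 10, against 145 and 180 at 48 h (log2 fold change -1.16, SE 0.17, adjusted p = 0.00975), and Acadvl 109, 86.2 and 106, against 171 and 197 (log2 fold change -0.87, SE 0.17, adjusted p = 0.0293). Without mouse 4 the S1 calls were 4, all but Acadvl, and they fell to 1, Cyp4a14, without mouse 2 and to 3 without mouse 5. With unscaled totals the median over all genes in S1 cells was 0.16, and 4 members passed, all lower. Of the 30 members tested in S1 cells, 16 had day 10 wholly below 48 h and 2 wholly above it, and the share of all genes is not given for this label. The 2 were Ehhadh and Acsl1, which did not pass, at log2 fold changes of 0.52 and 0.63 (adjusted p = 0.159 and 0.144).

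In Lrp2+ S2/3 cells 1 of 31 members fell, where 1.07% of all genes passed in either direction and 0.702% were lower. That member was Acaa2, at 142, 136 and 142 TMM-scaled CPM in mice 3, 4 and 5, against 320 and 305 in mice 1 and 2 (log2 fold change -1.16, SE 0.16, adjusted p = 0.0206). The call was lost without mouse 1, mouse 2 or mouse 5, when edgeR called 0 members and 11, 9 and 12 had an unadjusted p under 0.05. In the fit of all mice, 14 of 31 members and 1894 of 10538 genes had an unadjusted p under 0.05 (edgeR). Without mouse 4, 5 members passed: Acadvl, Acaa1b, Acaa2, Decr1 and Cyp4a10. Of the 31 members, 23 had negative and 8 positive fold changes, 20 had day 10 wholly below 48 h and 3 wholly above it. The share of all genes is not given for this label. Slc27a2 was among the 3, with 1775, 1238 and 1587 TMM-scaled CPM at day 10, against 1166 and 1101 at 48 h, and it did not pass (log2 fold change 0.44, SE 0.20, adjusted p = 0.287). Cyp4a10 had 209, 228 and 177, against 353 and 337 (log2 fold change -0.75, SE 0.18, adjusted p = 0.0860), and Cyp4a14 overlapped, at 103, 296 and 113.5, against 285 and 123.

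In the shallower Lrp2- S2/3 cells, Acaa1b was the 1 member of 30 that fell, where 1.43% of all genes passed and 0.706% were lower. It had 200, 205 and 340 TMM-scaled CPM at day 10, against 457 and 552 at 48 h (log2 fold change -1.0, SE 0.24, adjusted p = 0.0431). The ratio of Acaa1b to Acaa1a was 3.73, 2.64 and 3.85 in Lrp2+ S2/3 cells of mice 3, 4 and 5, against 5.64 and 4.25 in mice 1 and 2, and 0.66, 0.77 and 0.58 in S1 cells, against 0.91 and 1.54. Acaa1a was thus the more abundant of the pair in S1 cells of 4 of 5 mice and Acaa1b in Lrp2+ S2/3 cells of all 5.

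Injured PTECs had the highest number of calls of the proximal labels. There 11 of 31 members fell and none rose, where 5.88% of all genes passed in either direction and 3.12% were lower, and all 31 fold changes were negative, with a median of -0.82 beside 0.04 over all genes. Cyp4a10 had 63.3, 29.1 and 64.6 TMM-scaled CPM in mice 3, 4 and 5, against 279 and 457 in mice 1 and 2 (log2 fold change -2.77, SE 0.35, adjusted p = 0.0120). Acaa1b had 88.3, 40.1 and 120, against 278 and 586 (log2 fold change -2.35, SE 0.44, adjusted p = 0.0304), and Acaa2 62.7, 55.0 and 86.0, against 172 and 226 (log2 fold change -1.54, SE 0.23, adjusted p = 0.0164). In each of these the groups were well apart, with mouse 4 lowest.

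The other 8 members called in Injured PTECs had log2 fold changes between -2.62 and -0.96. Cyp4a14 had 22.2, 22.6 and 32.8 TMM-scaled CPM, against 240 and 79.1 (log2 fold change -2.62, adjusted p = 0.0193), and Acadvl 101, 49.8 and 113.05, against 218 and 220 (log2 fold change -1.29, adjusted p = 0.0490). Slc25a20, Hadh, Decr1, Hsd17b4, Crat and Abcd3 made up the rest. Slc27a2 had 1028, 364 and 848, against 1350 and 1670, and did not pass (log2 fold change -1.01, SE 0.38, adjusted p = 0.14). Its point estimate was thus negative here and positive in Lrp2+ S2/3 cells, a difference that was not tested.

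The Injured PTEC label differed between mice in more than time. It held 305, 48 and 251 cells in mice 3, 4 and 5 and 590 and 99 cells in mice 1 and 2. Its summed level of 10 injured tubule markers ran between 22758 and 30878 raw CPM at day 10 and between 8056 and 45749 at 48 h, with none of the 10 at 0 over the label. Lrp2 had 520, 276 and 529 raw CPM in it at day 10, against 850 and 1420 at 48 h, and mitochondrially encoded genes took 17.5%, 12.2% and 16.7% of UMIs, against 21.3% and 24.1%. The part of these differences in the members' fall was not tested. Without mouse 4 the count was 7, without mouse 5 it was 4, without mouse 2 it was 2 and without mouse 3 it was 1, and unscaled totals, with a median over all genes of 0.45, gave 6. Shares of all genes in these fits are not given, so the moves are no result about the members alone.

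**Figure D4:**
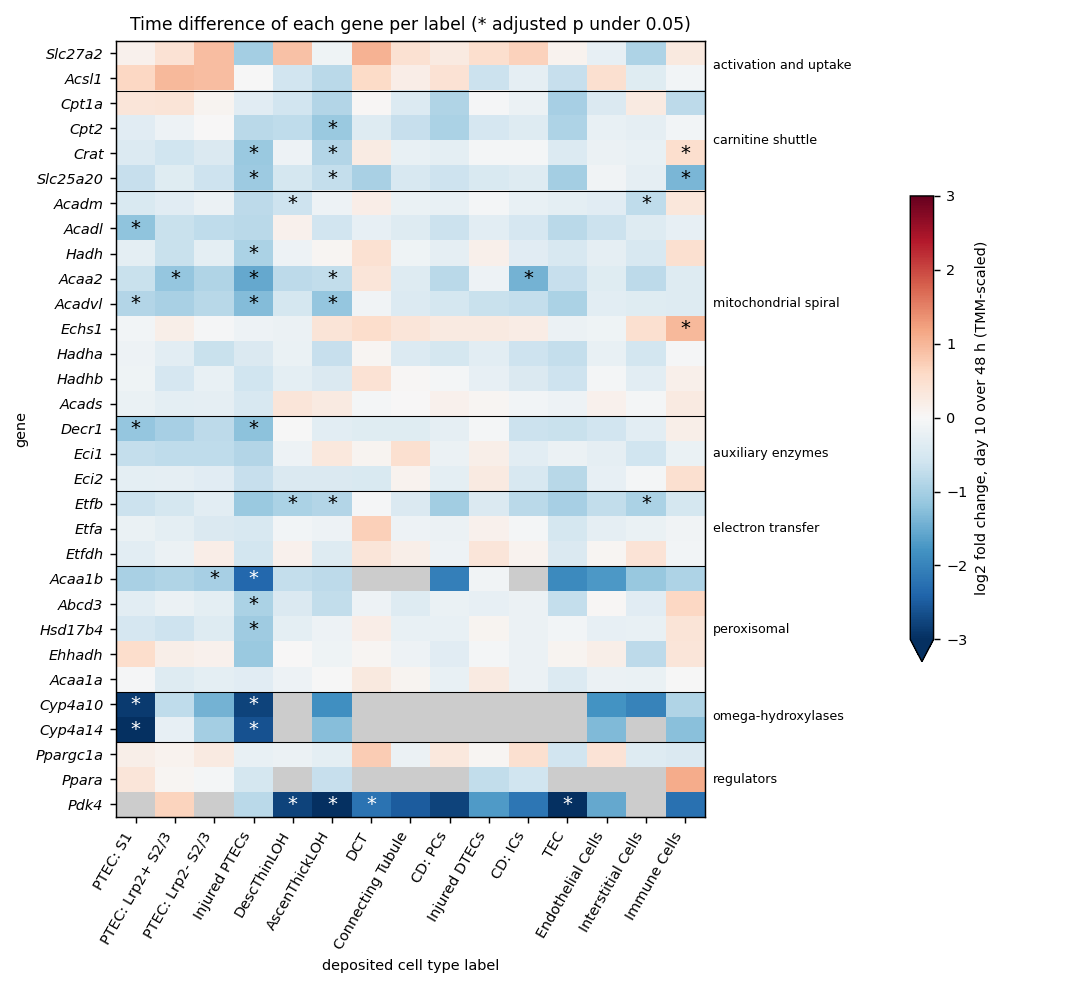
Log2 fold change of each member, day 10 over 48 h (colour, drawn to a limit of 3 in either direction), in 15 labels with at least 20 cells in every library. Asterisks mark an adjusted p under 0.05 and grey marks genes not tested. The Injured PTECs column is negative throughout, and the Pdk4 row is deeply negative in the thin and thick limbs, the distal labels and TEC.

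The thick ascending limb, which pumps salt and is also rich in mitochondria, had 7 of 31 members lower at day 10 and none higher, but 10.4% of all genes passed there and 5.38% were lower. The median log2 fold change was -0.58 over the members and 0.00 over all genes, and 17 members had day 10 wholly below 48 h, against 23.6% of all genes. Pdk4 (chr6:5483351-5496309, minus strand) had 8.64, 7.79 and 17.6 TMM-scaled CPM in mice 3, 4 and 5, against 93.3 and 107 in mice 1 and 2 (log2 fold change -3.13, SE 0.29, adjusted p = 0.00277). Each mouse at day 10 was several times below each at 48 h. Pdk4 passed in all 5 refits that left out 1 mouse, with a highest adjusted p of 0.0175 over these and 8 other settings.

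The carnitine shuttle accounted for 3 of the thick ascending limb calls. Cpt2 had 18.8, 16.5 and 21.1 TMM-scaled CPM at day 10, against 36.7 and 45.4 at 48 h (log2 fold change -1.11, SE 0.16, adjusted p = 0.0105). Crat had 19.4, 22.2 and 22.4, against 34.4 and 44.6 (log2 fold change -0.89, SE 0.16, adjusted p = 0.0182). Slc25a20 had 14.2, 15.8 and 17.6, against 22.5 and 29.4 (log2 fold change -0.70, SE 0.18, adjusted p = 0.0448). The groups were apart in all 3, and in Cpt1a, which had 63.0, 88.0 and 102, against 110 and 199, without passing (log2 fold change -0.87, SE 0.28, adjusted p = 0.0863).

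Other calls in the thick ascending limb were Acadvl, Etfb and Acaa2. Acadvl had 59.1, 55.9 and 78.8 TMM-scaled CPM at day 10, against 124 and 163 at 48 h (log2 fold change -1.15, SE 0.19, adjusted p = 0.0139). Etfb had 248, 195 and 272, against 401 and 482 (log2 fold change -0.89, SE 0.17, adjusted p = 0.0209), and Acaa2 89.9, 93.7 and 115, against 138 and 197 (log2 fold change -0.75, SE 0.18, adjusted p = 0.0430). By contrast Acads, Eci1 and Echs1 were higher in each day 10 mouse than in each 48 h mouse without passing, at log2 fold changes of 0.26, 0.33 and 0.38. Over all genes, 23.7% had day 10 wholly above 48 h.

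Scaling mattered more in this segment than in the proximal tubule. With unscaled totals the median over all genes was 0.36, and 3 members were called higher (Acads 0.62, Eci1 0.69 and Echs1 0.73) and 4 lower (Cpt2 -0.76, Acadvl -0.79, Crat -0.53 and Pdk4 -2.77). The share of all genes called higher or lower in that fit is not given, so these counts are no result about the members alone. Mitochondrially encoded genes took 7.42%, 8.88% and 7.74% of thick ascending limb UMIs in mice 3, 4 and 5, against 21.6% and 21.7% in mice 1 and 2, and the summed injured tubule markers ran between 41532 and 53935 raw CPM, against 83907 and 97576. With mitochondrially encoded genes left out 7 members passed, the same 7, and with cells of under 20% mitochondrial UMIs 4 passed (Cpt2, Acadvl, Crat and Pdk4). The count was 11 without mouse 1, 3 without mouse 2 or mouse 3, 4 without mouse 4 and 1, Pdk4, without mouse 5. Shares of all genes in these refits are not given either, so the moves are no result about the members alone.

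Pdk4 was lower at day 10 across the thin limb and the distal nephron. In the descending thin limb it had 3.55, 5.92 and 9.21 TMM-scaled CPM, against 33.4 and 52.8 (log2 fold change -2.79, SE 0.36, adjusted p = 0.00387). In the distal convoluted tubule it had 11.5, 14.6 and 27.7, against 99.7 and 79.4 (log2 fold change -2.22, SE 0.33, adjusted p = 0.0152), and in the label TEC (tubule cells of unstated segment) 6.22, 10.7 and 7.71, against 70.6 and 61.9 (log2 fold change -3.0, SE 0.35, adjusted p = 0.00310). The 48 h mice were above all day 10 mice in each of these labels. In connecting tubule, principal cells and Injured DTECs the same separation came with log2 fold changes of -2.49, -2.77 and -1.69 that did not pass (adjusted p = 0.138, 0.0744 and 0.122). Lrp2+ S2/3 cells had 11.3, 1.10 and 8.49 TMM-scaled CPM of Pdk4, against 7.54 and 3.49, which overlapped. TEC cells were shallow, with medians of 1556 to 1687 UMIs per cell. Their summed thick ascending limb markers were 595, 372 and 502 raw CPM in mice 3, 4 and 5, against 2327 and 1474 in mice 1 and 2. The part of that shift in the Pdk4 values of TEC was not tested.

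Whether the 2 segments differed in their change over time was tested by the interaction of time and segment, with mouse as a block. The time effect differed for 7 of 31 members, 3 more positive and 4 more negative in the proximal tubule, where 7.38% of all genes passed, 3.72% more positive and 3.66% more negative. Acsl1 had the largest difference among the 7, at 1.61 on the log2 scale (SE 0.16, adjusted p = 0.00340), with fold changes of 0.74 in the proximal tubule and -0.81 in the thick ascending limb. In the thick ascending limb it had 57.6, 108 and 73.7 TMM-scaled CPM at day 10, against 131 and 148 at 48 h. Cpt1a differed by 0.97 (SE 0.20, adjusted p = 0.0293) and Cpt2 by 0.73 (SE 0.17, adjusted p = 0.0385). In the proximal tubule their fold changes were 0.13 and -0.40, and in the thick ascending limb -0.87 and -1.11.

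The 4 members with a more negative time effect in the proximal tubule were Eci1, Hadh, Acads and Hsd17b4. Eci1 differed by -1.07 (SE 0.14, adjusted p = 0.00607), having 86.0, 75.3 and 90.0 TMM-scaled CPM in the thick ascending limb at day 10, against 67.0 and 66.7 at 48 h. Hadh differed by -0.63 (SE 0.15, adjusted p = 0.0386), Acads by -0.60 (SE 0.14, adjusted p = 0.0378) and Hsd17b4 by -0.54 (SE 0.14, adjusted p = 0.0482). Acsl1 and Eci1 passed in each of the 5 refits without 1 mouse, which called 5 members without mouse 1, 3 without mouse 4 and 2 without mouse 2, 3 or 5. With unscaled totals 7 members passed, 2 more positive and 5 more negative, and 6 of them were shared. For Pdk4 the difference of 2.35 was imprecise (SE 0.69, adjusted p = 0.0745), and for Acadvl it was 0.14 (SE 0.17, adjusted p = 0.634), so a difference between segments was not shown for either.

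**Figure D5:**
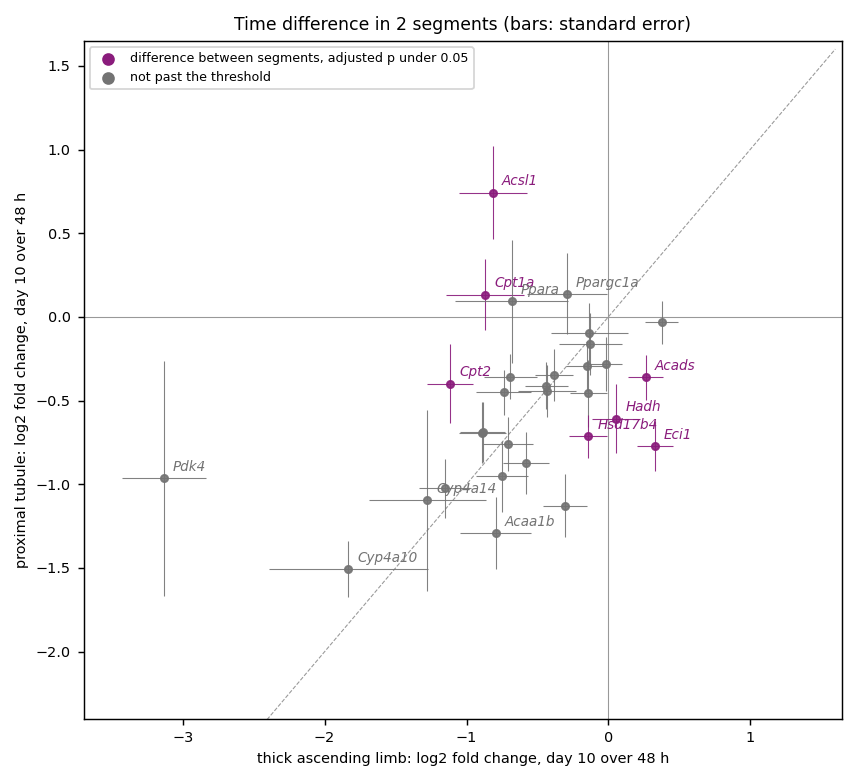
Log2 fold change, day 10 over 48 h, of each member in the proximal tubule (y axis) against the thick ascending limb (x axis), with SE bars and a dashed line of equal change. Purple points passed the interaction test, with Acsl1, Cpt1a and Cpt2 above the line and Eci1, Hadh, Acads and Hsd17b4 below it. Pdk4 lies far left, at -3.13 on the x axis.

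The remaining labels held few calls. In the descending thin limb 3 of 28 members fell (5.12% of all genes passed, 2.35% lower), Acadm, Etfb and Pdk4, and Etfb had 246, 211 and 242 TMM-scaled CPM, against 425 and 477 (log2 fold change -0.95, SE 0.14, adjusted p = 0.00660). Intercalated cells, which secrete acid or base, had Acaa2 as the 1 of 28 that fell (0.238% and 0.171%), with 114.2, 102 and 168, against 357 and 327 (log2 fold change -1.41, SE 0.21, adjusted p = 0.0407). In the distal convoluted tubule (0.721% and 0.330%) and in TEC (0.525% and 0.243%) the 1 call was Pdk4, of 27 and 28 members tested. The edgeR test called 0 members in the connecting tubule, principal cells and Injured DTECs, where 0.0104%, 0.0628% and 0.199% of all genes passed. In these labels 2 of 27, 10 of 28 and 4 of 29 members had an unadjusted p under 0.05, beside 645 of 9645, 1179 of 11152 and 1170 of 11076 genes.

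Outside the nephron, interstitial cells had Acadm and Etfb lower, 2 of 28 members where 7.44% of all genes passed and 3.53% were lower. Endothelial cells had 0 of 30 (0.328% of all genes), with 8 members and 1698 of 12190 genes at an unadjusted p under 0.05 (edgeR). Immune cells gave the 2 calls higher at day 10 among the 15 tested labels. There Echs1 had 61.2, 103 and 65.9 TMM-scaled CPM at day 10, against 36.4 and 41.3 at 48 h (log2 fold change 0.98, SE 0.25, adjusted p = 0.0402), and Crat 28.2, 29.3 and 28.8, against 21.0 and 19.5 (log2 fold change 0.51, SE 0.11, adjusted p = 0.0295). Slc25a20 fell, at 7.99, 7.69 and 11.4, against 20.9 and 25.5 (log2 fold change -1.37, SE 0.22, adjusted p = 0.0118). In immune cells 19.2% of all genes passed, 10% higher and 9.23% lower, so 3 of 31 members is below that background.

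Proximal transcripts were also counted in cells that should lack them. In endothelial cells the members restricted to the proximal tubule reached 2.27% to 7.63% of their proximal raw CPM at day 10 and 3.71% to 7.62% at 48 h, and proximal tubule markers 2.03% to 6.04% and 3.12% to 8.36%. Slc27a2, Acaa1b, Cyp4a10, Cyp4a14 and Ppara lay within the range of the markers there at both times, and Ehhadh above it at day 10. Whether free RNA, doublets or low expression gave these counts was not tested. In the thick ascending limb the markers reached 0.661% to 1.90% of their proximal level at day 10 and 0.710% to 1.80% at 48 h, and the restricted members 0.741% to 8.26% and 0.882% to 12.9%. Cyp4a10, Slc27a2 and Cyp4a14 lay within the marker range there at both times, and Acaa1b, Ppara and Ehhadh above it.

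Across the 15 tested labels some members kept 1 direction. Slc25a20, Acadvl and Etfb had negative fold changes in 15 of 15, with 3 calls each, and Acaa2 in 14 of 15, with 4 calls. Acaa1b was negative in 12 of 12 labels that tested it, Cyp4a10 in 8 of 8, Cyp4a14 in 7 of 7 and Pdk4 in 11 of 12. The 5 members positive in more labels than not were Slc27a2 with positive values in 11 of 15, Echs1 in 9, and Ehhadh, Etfdh and Ppargc1a in 8 each. Slc27a2, Cyp4a10 and Cyp4a14 lay within the range of proximal tubule markers in endothelial cells and the thick ascending limb, and Acaa1b in endothelial cells. Whether proximal RNA counted in other cells gave their direction there was not tested. The labels share mice, so these counts are a description.

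Of 84 other genes of the pathway found in the matrices, 79 were tested in the proximal tubule, and 6 fell and none rose, with a median log2 fold change of -0.27, where 3.22% of all genes passed, 1.94% were lower and the median was 0.03. The fatty acid carrier Fabp1 had 1.70, 3.89 and 1.72 TMM-scaled CPM at day 10, against 38.0 and 9.33 at 48 h (log2 fold change -3.44, adjusted p = 0.0377), and the fatty acid receptor Cd36 81.3, 29.6 and 59.0, against 242 and 239 (log2 fold change -2.08, adjusted p = 0.0347). Cyp4a12a and Cyp4a12b, of the same family as Cyp4a10, fell by 1.71 and 1.70 on the log2 scale (adjusted p = 0.0239 and 0.0435). All 3 mice at day 10 were below both at 48 h in these 4 genes.

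In the thick ascending limb 68 of the other pathway genes were tested, and 2 rose and 11 fell, with a median of -0.33, where 10.4% of all genes passed and 5.38% were lower. With unscaled totals 6 rose and 7 fell, and the share of all genes in that fit is not given. Cpt1b, the muscle form of the carnitine gate, had 10.1, 13.9 and 15.0 TMM-scaled CPM at day 10, against 36.4 and 59.6 at 48 h (log2 fold change -1.90, adjusted p = 0.00863). Angptl4, an inhibitor of lipoprotein lipase, had 34.2, 10.4 and 61.0, against 178 and 153 (log2 fold change -2.21, adjusted p = 0.0365). Fabp4, Acacb and Acot2 fell by 2.28, 1.66 and 1.48 on the log2 scale (adjusted p = 0.0361, 0.0160 and 0.0113). The risers were the carrier Fabp5, at 5.21, 8.49 and 8.15, against 2.88 and 2.67 (log2 fold change 1.36, adjusted p = 0.0371), and Echdc2, at 35.6, 31.4 and 34.6, against 20.5 and 13.1 (log2 fold change 1.00, adjusted p = 0.0253).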

How the data were processed

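Kidney cells of 5 mice were profiled in droplets (10x Genomics, 3′ kit, v3.1), per the labels' protocols. The authors deposited UMI counts per gene and cell, made with Cell Ranger 6.0.2 and Seurat 4.0.5 on mm10 per the submitters' processing notes (6.0.0 per the matrix headers), and cell labels, which were used as deposited. Doublets were not called again here. The authors' deposited percent of mitochondrial UMIs per cell set the limit used in 1 alternative, and their deposited score columns (embedding coordinates) were not used.

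Counts were summed per mouse and label. Genes kept by filterByExpr were tested with edgeR 4.0.16 (R 4.3.3), TMM factors and the quasi-likelihood F test, day 10 over 48 h, with Benjamini-Hochberg adjustment over all genes tested and a threshold of 0.05. Labels with 20 or more cells in each library were fitted, so Cycling PTEC, podocytes and red blood cells were not. The interaction of segment and time had mouse as a block. Alternatives were unscaled totals, DESeq2 1.42.0, limma 3.58.1, no filter, cells thinned to 2000 UMIs, mitochondrial limits and leaving out each mouse. The script was tested on simulated counts. Samples of a label are 1 library per mouse, and p-values cover the spread between these mice. Depth was 45887945 to 78351722 UMIs per library, and intervals for counting error alone were not used.

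Members given mouse by mouse were those called in the proximal tubule, S1, Lrp2+ S2/3 or thick ascending limb fits or in the interaction, the 8 highest in the proximal tubule, and Ppara, Ppargc1a, Cpt1a, Pdk4, Cyp4a10 and Cyp4a14. Genes named in other labels were called there or chosen after their values were seen. Members and gene lists were chosen with earlier results of these data known, and the list of other pathway genes with them. Of its 85 symbols 84 matched. A gene of that list is not reported here by name.

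Promoter windows are RefSeq's, on GRCm38.p6, for 25 of 31 members, and gene coordinates are GENCODE's on GRCm38. Motifs were searched on both strands. AGGTCA also lies within AGGTCANAGGTCA and TNAAGGTCA.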

Additional observations from a re-analysis of the deposited data

Results flagged for a closer look

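The change over time differed between the proximal tubule and the thick ascending limb for 7 members, by the interaction test itself. The difference, proximal tubule minus thick ascending limb in log2 fold change, was 1.61 for Acsl1, 0.97 for Cpt1a and 0.73 for Cpt2. It was -1.07 for Eci1, -0.63 for Hadh, -0.60 for Acads and -0.54 for Hsd17b4. Acsl1 and Eci1 passed without each mouse in turn, Cpt1a, Cpt2 and Acads passed in 1 such refit, and Hadh and Hsd17b4 in 0 (the 5 refits used edgeR, and each of these members had an unadjusted p under 0.05 in the fit of all mice). Mitochondrially encoded genes took 19.7% to 20.1% of proximal tubule UMIs at day 10 and 20.6% to 22.1% at 48 h, against 7.42% to 8.88% and 21.6% to 21.7% in the thick ascending limb, and the part of that in these differences was not tested. Groups of 2 and 3 mice are too small for a check of single outlying mice.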

How the results depend on the processing

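No paired analysis was possible because each mouse had 1 time only. Over 432 values of single called members under alternative settings, 0 reversed direction, 282 kept their side of the threshold and 150 lost it. In the proximal tubule the count of 6 became 3 with unscaled totals, 11 with no filter, 12 with the DESeq2 Wald test, 11 with cells under 20% mitochondrial UMIs, 3 without Injured and Cycling PTEC cells (2 of them shared) and 0 to 4 without 1 mouse. In the thick ascending limb 7 became 15 with no filter, 12 with DESeq2, 4 with cells under 20% mitochondrial UMIs, 4 with that limit and no mitochondrially encoded genes, 4 with equal cells and UMIs, and 1 to 11 without 1 mouse. In S1 cells 5 became 11 with no filter (1 of them higher), 3 with cells under 20% mitochondrial UMIs, 3 with equal cells and UMIs, and 1 to 5 without 1 mouse. In Lrp2+ S2/3 cells 1 became 9 with no filter, 7 with DESeq2, 0 with equal cells and UMIs (edgeR, 8 at an unadjusted p under 0.05) and 0 to 5 without 1 mouse. In Injured PTECs 11 became 6 with unscaled totals, 20 with no filter, 1 with equal cells and UMIs, and 1 to 9 without 1 mouse. The interaction count of 7 was 2 to 5 without 1 mouse. The set's log2 difference of -0.28 in the proximal tubule became -0.54 with TMM-scaled totals, -0.15 without Injured and Cycling PTEC cells, -0.48 with cells under 20% mitochondrial UMIs, and -0.36 to -0.20 without 1 mouse. The cause of these moves was not tested. Members entered the 432 values because they passed in a main fit, so a kept direction is no independent support. The share of all genes that passed is not given beside these counts, so a changed count is no result about the members alone. Equal cells meant 286 cells of 2000 UMIs per library in the proximal tubule, 195 in the thick ascending limb, 102 in S1, 72 in Lrp2+ S2/3 and 46 in Injured PTECs. With 3 and 2 mice, a member that did not pass is not shown to be unchanged.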

Other observations

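Mouse 4 differed from the other mice at day 10 in several genes of the proximal tubule. Slc7a13, a transporter of the S3 segment, had 485, 20.7 and 271 raw CPM in Lrp2+ S2/3 cells of mice 3, 4 and 5 and 65.8 and 28.4 in mice 1 and 2. Kap had 37478, 45.4 and 28668 raw CPM there, against 11076 and 13194. Among the members, mouse 4 had the highest Cyp4a14 of the day 10 mice in S1 and Lrp2+ S2/3 cells and the highest Ppara and Acsl1 in the whole proximal tubule.

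Hadha and Hadhb, whose subunits work as 1 complex, lie on opposite strands of chromosome 5. Their RefSeq starts are 273 bases apart, and their RefSeq promoter windows overlap by 228 bases. GENCODE puts the gene starts closer, at 30155162 for Hadha and 30155248 for Hadhb. Their fold changes were -0.36 and -0.41 in the proximal tubule and -0.69 and -0.44 in the thick ascending limb on the log2 scale, and neither passed in any of the 15 labels.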
